A study of Mus musculus with 6 samples.

Results

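Pericytes, the mural cells that wrap the capillaries of the brain, were examined in single-nucleus RNA-sequencing (snRNA-seq) data of brains from neonatal mice injected with lysophosphatidic acid (LPA), a signaling lipid of blood, or with vehicle. Counts are of unique molecular identifiers (UMIs), each of which stands for 1 captured transcript. A nucleus was taken as a pericyte if it had at least 300 genes, at most 1% mitochondrial UMIs, at least 3 UMIs summed over Abcc9, Atp13a5, Kcnj8 and Vtn, and at least 1 UMI of Pdgfrb. In addition, at most 1 UMI was allowed from the fibroblast genes Bnc2 and Slc6a13 together, 2 from the endothelial gene Flt1, 1 from the smooth muscle genes Acta2 and Myh11 together and 0 from the microglial gene Csf1r. Apart from the limits on genes and mitochondrial UMIs, the nuclei were thus chosen by the measured UMIs of 11 genes. The levels of these 11 are given as a description and were not tested. Mitochondrial genes were tested, although the limit on their UMIs also chose the nuclei. The rule found 1673 pericytes among the 60724 nuclei that met the limits on genes and mitochondrial UMIs.

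Libraries came from C57BL/6 S-56 mice that received 5 µl into the right lateral ventricle at P7, holding either LPA or the vehicle alone (0.01% BSA in PBS). Brains were taken at P15, without olfactory bulbs and cerebellum, and nuclei negative for the neuronal protein NeuN were sorted, with a target of 10000 per library. There were 3 LPA libraries and 3 vehicle libraries, each from 1 brain by the study's methods, and p-values measure the spread between these libraries. The LPA libraries held 50737541, 53380143 and 54715094 UMIs and the vehicle libraries 48852970, 65688644 and 55864168. Counts of Xist and of Y-linked genes showed that LPA 1, vehicle 1 and vehicle 3 were male and LPA 2, LPA 3 and vehicle 2 were female, so sex was not balanced between the groups. Pericytes numbered 221, 240 and 247 in LPA 1 to LPA 3 and 217, 366 and 382 in vehicle 1 to vehicle 3. Any 2 libraries shared between 268 and 303 barcodes, and 1 barcode was called a pericyte in both LPA 1 and vehicle 2.

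Pericytes sit within the basement membrane of capillaries and are recruited by platelet-derived growth factor B from endothelial cells, which acts on the receptor PDGFRB. They carry ATP-sensitive potassium channels built from the pore Kir6.1 (Kcnj8) and the sulfonylurea receptor SUR2 (Abcc9), and they help to form the blood-brain barrier and to set capillary diameter. LPA acts through G protein-coupled receptors, of which several act on the actin cytoskeleton.

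The genes of the gate were far above their levels in other nuclei. Levels are given as CPM, the UMIs of a gene per 1e+06 UMIs summed over the nuclei of a gate in 1 library. They were compared between gates for the same gene only, because intronic reads were counted and long genes gain more of them. Atp13a5, a transport ATPase whose gene lies on chromosome 16 (29231851 to 29378732, mm10), was at 2412, 2915 and 2277 CPM in the LPA pericytes and at 1997, 2481 and 2648 CPM in the vehicle pericytes. Its mean over the 6 libraries was 2455 CPM, against 445 CPM in nuclei of a smooth muscle gate, 257 CPM in fibroblasts, 11.7 CPM in endothelial cells and 52.0 CPM in all other nuclei. Abcc9 (chromosome 6, 142587862 to 142702315) and its neighbor Kcnj8 (chromosome 6, 142564837 to 142571614) had means of 598 and 90.0 CPM in pericytes, and their next highest levels were 69.8 and 11.5 CPM in the smooth muscle gate. Vtn, which encodes the secreted protein vitronectin, was 5.17 times and Pdgfrb 2.62 times as high in pericytes as in the next highest gate. The ranges of the LPA and vehicle libraries overlapped for all 5 of these genes. The smooth muscle gate, which needed at least 3 UMIs of Acta2 and Myh11, held only 42 nuclei, so its means are the least precise.

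Genes that the rule did not use marked the same nuclei. Of 25 genes listed as pericyte or mural cell genes, 18 had their highest mean level in pericytes, among 5 groups of nuclei. Dlc1, which encodes a GTPase-activating protein, averaged 3867 CPM in pericytes and 2775 CPM in smooth muscle cells. Rgs5, a regulator of G protein signaling, averaged 565 CPM in pericytes, 491 CPM in smooth muscle cells and 195 CPM in endothelial cells. Cox4i2, a subunit of cytochrome c oxidase, was 23.0 times and Art3 3.85 times as high as in the next highest gate. The 7 exceptions were Notch3, Slc38a11, Tbx18, Ebf1 and Steap4, which were highest in the smooth muscle gate, and Anpep and Foxc1, which were highest in fibroblasts. Among all genes outside the gate with at least 50 CPM in pericytes, the 15 that stood furthest above the next highest gate were led by Gipr, the receptor for glucose-dependent insulinotropic polypeptide, at 57.3 CPM against 7.36 CPM. Plxdc1 (6.41 times the next highest gate), the aminopeptidase gene Enpep (5.32 times) and Tmem45a (5.20 times) came next. The group also held the Wnt antagonist gene Dkk2 (4.36 times), the calcium pump gene Atp2a3 (3.72 times), the phosphodiesterase gene Pde8b (3.31 times) and the long noncoding RNA Morrbid (3.32 times). The smooth muscle gate had the next highest level for 14 of the 15 genes and the fibroblast gate for the other one, Tmem45a.

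**Figure D1:**
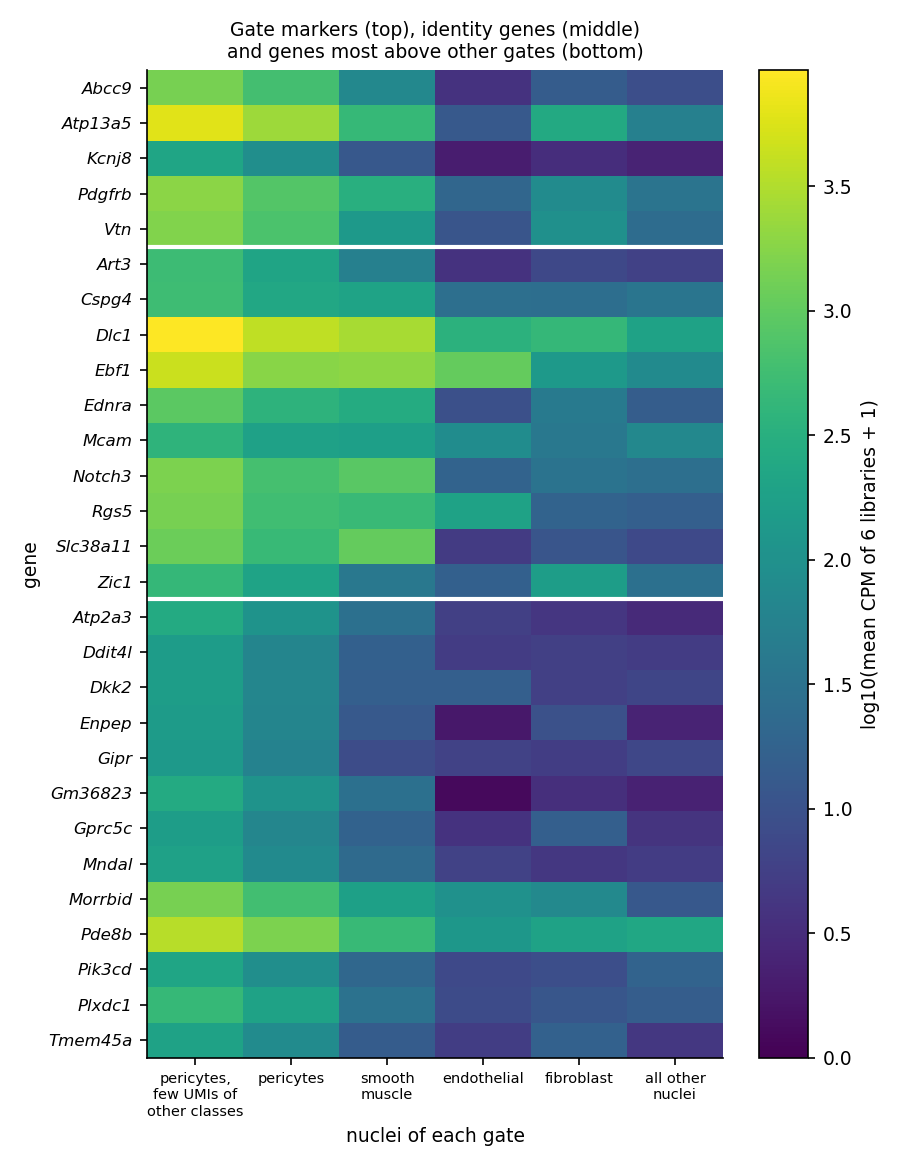
Mean level of 28 genes in each gate, as log10 of the mean CPM of 6 libraries plus 1 (color). The 5 gate markers stand at the top, 10 identity genes in the middle and the genes furthest above other gates at the bottom, and the first column holds the 960 pericytes with few UMIs of other classes (Atp13a5 averaged 6030 CPM there and 2455 CPM in all pericytes), a limit that was not set on the other gates and that by itself raises the CPM of pericyte genes.

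Many of the pericyte nuclei also held UMIs of another cell class. Depth ran from 500 to 54515 UMIs per nucleus with a median of 2628, and the gate markers from 3 to 67 UMIs with a median of 16. Scrublet, a program that scores each barcode against simulated doublets, called 520 of the 1673 pericytes, or 28.4% to 34.1% per library, compared to 16.1% to 19.4% of all nuclei. The called pericytes had a median of 7141 UMIs and the others one of 2204. Pericytes were then divided by the UMIs of marker lists for astrocytes, oligodendrocytes, their precursors and neurons, a division made after the data had been seen. In 664 pericytes (39.7%) these markers exceeded 1% of UMIs. Their leading class was astrocytes in 225 nuclei, neurons in 222, oligodendrocytes in 175 and oligodendrocyte precursors in 42, and Scrublet had called 75.5% of them. A further 49 nuclei exceeded 3 UMIs of fibroblast markers only, none of which Scrublet had called. The remaining 960 pericytes (57.4%) had few UMIs of other classes, and Scrublet had called 1.98% of them. They supplied only 28.4% of the UMIs of all pericytes, whereas the 664 nuclei rich in neural and glial markers supplied 69.9%.

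**Figure D2:**
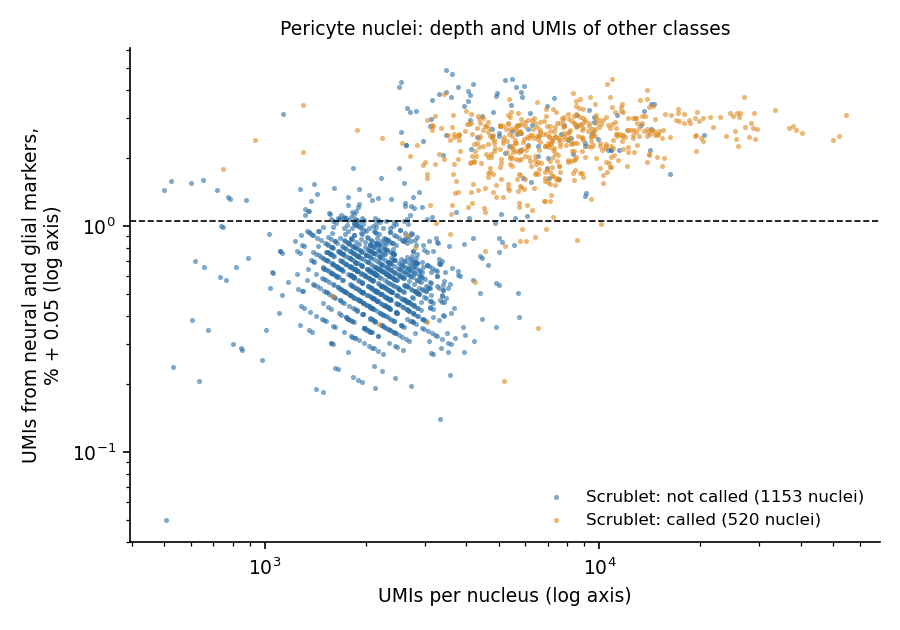
Each point is 1 of 1673 pericytes, placed by its UMIs (x axis, log scale) and by the percent of UMIs from astrocyte, oligodendrocyte, precursor and neuron markers plus 0.05 (y axis, log scale). Most of the 520 Scrublet calls (orange) lie above the dashed line, which marks the limit of 1% plus 0.05, and to the right of the median of 2628 UMIs.

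Over all pericytes, marker UMIs of other vascular cells were low. Endothelial markers summed to 2.35 ± 0.131 (SD, n = 3) per 10000 UMIs in LPA pericytes and to 2.17 ± 0.136 (SD, n = 3) in vehicle pericytes, against 73.2 in the endothelial gate, and to 4.09 ± 0.70 and 3.41 ± 0.228 in the 960 pericytes with few UMIs of other classes. The smooth muscle list summed to 4.77 ± 0.195 and 4.13 ± 0.33 per 10000 UMIs, against 34.8 in the smooth muscle gate, and to 6.25 ± 0.483 and 5.74 ± 0.215 in the 960 nuclei. Over all pericytes the microglia and macrophage list summed to 0.773 ± 0.19 and 0.786 ± 0.125. No gene of the endothelial, microglial and fibroblast lists was at 0 there, and Emcn made up 45.8% of the endothelial marker UMIs. The data did not go against the name, although part of the nuclei named pericytes held markers of a second class.

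At the edge of the gate, the nuclei were of mixed kind. The 77 pericytes with exactly 3 marker UMIs had a median depth of 3777 UMIs and on average 77.1 astrocyte marker UMIs, compared to 23.8 over all pericytes. The 213 nuclei with exactly 2 marker UMIs that met all other limits had a median of 4214 UMIs and 102 astrocyte marker UMIs. Among nuclei that missed a single limit, 637 had too many UMIs of Bnc2 and Slc6a13, 284 lacked Pdgfrb, 205 had too many of Flt1, 146 held Csf1r and 22 had too many of Acta2 and Myh11.

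Whether LPA changed the number of pericytes was asked next. Pericytes made up 2.59%, 2.34% and 2.71% of the nuclei of the LPA libraries and 2.68%, 2.95% and 3.10% of those of the vehicle libraries. The groups overlapped, since vehicle 1 lay below LPA 3. The means were 2.55% ± 0.192 (SD, n = 3) and 2.91% ± 0.214 (SD, n = 3), a difference of -0.362 percentage points. Its size was larger than either SD, and a two-sided exact permutation test gave p = 0.2. The smallest p that 3 against 3 libraries allow is 0.1, so the test could not decide. Within a library the 95% exact binomial interval was wider than the difference, for example 2.27% to 2.95% in LPA 1, and such intervals cover counting error only. In the 960 pericytes with few UMIs of other classes the shares were 1.54% ± 0.0559 and 1.59% ± 0.189 (SD, n = 3 each), a difference of -0.0415 points (exact permutation test, p = 0.8). When no UMI of Flt1, Bnc2, Slc6a13, Acta2 or Myh11 was allowed, 878 pericytes were left. Their shares were 1.31%, 1.16% and 1.31% in LPA and 1.51%, 1.55% and 1.74% in vehicle libraries, without overlap (1.26% ± 0.0875 and 1.6% ± 0.123, SD, n = 3 each, exact permutation test, p = 0.1).

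The sign of the difference depended on the denominator and on depth. Among pericytes and endothelial cells alone, pericytes were 47.3% ± 1.92 of the LPA nuclei and 53.7% ± 5.86 of the vehicle nuclei (SD, n = 3 each, exact permutation test, p = 0.2). Among all 4 vascular gates they were 25.2% ± 2.10 and 20.2% ± 1.55 (exact permutation test with n = 3 each, p = 0.1). There the fibroblast gate moved with the result, at 4.67% ± 0.414 of all LPA nuclei and 8.91% ± 0.055 of all vehicle nuclei (exact permutation test with n = 3 each, p = 0.1). When every nucleus was thinned to 1500 UMIs and shallower ones were left out, the pericyte shares were 2.19% ± 0.155 and 2.12% ± 0.197. The same nuclei unthinned gave 2.62% ± 0.178 and 2.81% ± 0.147. No share passed a p under 0.05, which 3 against 3 libraries cannot reach.

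**Figure D3:**
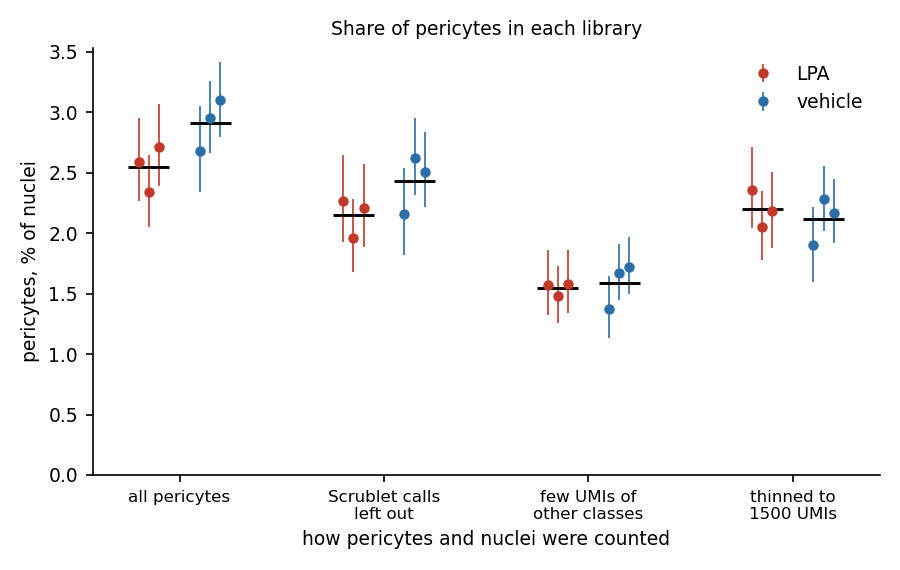
Pericytes as a percent of nuclei in each library (points; bars are 95% exact binomial intervals) and the group mean (black line), for 4 ways to count. The LPA and vehicle points overlap in all 4, with group means of 2.55% and 2.91% for all pericytes and 1.54% and 1.59% for those with few UMIs of other classes.

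Pericyte nuclei of the LPA libraries were deeper than those of the vehicle libraries and held fewer mitochondrial UMIs. Median depth was 2888, 2752 and 2897 UMIs in the LPA libraries and 2556, 2426 and 2160 in the vehicle libraries, so the groups did not overlap (two-sided exact permutation test, p = 0.1, the smallest possible). Median genes per nucleus were 1670 ± 26.8 and 1458 ± 114 (SD, n = 3 each, exact permutation test, p = 0.1). In nuclei with few UMIs of other classes the medians kept this order, at 2440, 2426 and 2399 UMIs against 2092, 2060 and 1785. Mitochondrial UMIs were on average 0.0241%, 0.0242% and 0.0551% of a pericyte in LPA libraries and 0.114%, 0.0810% and 0.105% in vehicle libraries. Over all nuclei the means were 0.0415% ± 0.0152 and 0.0997% ± 0.0159 (SD, n = 3 each), so the difference was present there too. The study's methods give 1 preparation for both groups, and the day on which each brain was processed is not given in the sources used here.

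For gene expression, the UMIs of all pericytes of a library were summed and compared between LPA and vehicle with edgeR's quasi-likelihood test and Benjamini-Hochberg adjustment. Differentially expressed genes (DEGs) were those whose adjusted p-value was under 0.05 and whose log2 fold-change reached 0.25 in either direction. Of 11443 genes tested, 42 were DEGs (0.367%), of which 6 were higher in LPA (0.0524%) and 36 lower (0.315%). An unadjusted p under 0.05 was reached by 1021 genes (8.92%), 480 higher (4.19%) and 541 lower (4.73%). Among the genes that fell there were 8 mitochondrial genes, which fell by 1.32 to 1.96 on the log2 scale, and 6 of 8 oligodendrocyte markers fell by 0.69 to 0.81. The other 22 were on neither list. Without the limit on mitochondrial UMIs, 3 genes were called higher and 18 lower, none of them mitochondrial. The genes that rose included Sfxn5, Mtcl1 and Rfx4. None of the 23 tested pericyte identity genes was among them, which says little where only 0.0524% of all genes tested rose. Sex was not balanced between the groups, and with a sex term in the fit 15 of the 42 DEGs still passed.

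All of the 36 genes that fell, and 5 of the 6 that rose, had a higher mean level in some other gate than in pericytes. With few UMIs of other classes (960 nuclei), 20 of the 36 and 3 of the 6 had at most 0.5 of their pericyte level. The shares of all tested genes with these properties were not counted, so these counts do not set the DEGs apart from other genes. In those nuclei 1 of 6546 genes tested passed (0.0153%), the mitochondrial gene mt-Co2, and 407 reached an unadjusted p under 0.05 (6.22%, with 3.07% higher and 3.15% lower). DESeq2 called 2 genes there, mt-Co2 and mt-Co3. Leaving out all Scrublet calls gave 3 DEGs of 7824 (0.0383%), mt-Co3, mt-Co2 and Cnksr3, each lower, and 640 genes at an unadjusted p under 0.05 (8.18%, with 3.91% higher and 4.27% lower). These nuclei also held fewer UMIs, and the part of that in the lower counts was not tested. Both sets of nuclei kept the limit on mitochondrial UMIs, and neither was fitted without it. Leaving out 1 library at a time moved the counts too. There were 0 higher and 2 lower DEGs without LPA 1, 1 and 6 when LPA 2 was dropped, and 3 and 30 when LPA 3 was dropped. When vehicle 1, vehicle 2 or vehicle 3 was left out instead, there were 6 and 14, 2 and 19, and 1 and 20. The 2 higher ones without vehicle 2, the only female vehicle library, were the sex-linked genes Xist and Tsix. Of the 42 genes, mt-Co2 and mt-Co3 were called in each of these 6 fits, all of which kept the limit on mitochondrial UMIs.

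The mitochondrial genes, which encode subunits of the respiratory chain and of ATP synthase, made up 8 of the 36 genes that fell. Of 13 such genes in the files 10 were tested, all 10 were lower in LPA and 8 were DEGs, with 1242 UMIs in LPA pericytes against 4355 in vehicle pericytes. The level of mt-Co2, a subunit of cytochrome c oxidase, was 25.5, 37.5 and 83.7 CPM in LPA and 193, 136 and 193 CPM in vehicle pericytes. The groups did not overlap, and LPA 3 was the highest of the LPA libraries. Its log2 fold-change was -1.79 ± 0.26 (SE, edgeR adjusted p = 0.00661), and in nuclei with few UMIs of other classes -2.09 ± 0.28 (SE, edgeR adjusted p = 0.00168). The level of mt-Co3 was 61.4, 74.0 and 114 CPM against 267, 202 and 238 CPM, again without overlap (log2 fold-change -1.48 ± 0.17, SE, edgeR adjusted p = 0.000825). The limit of 1% mitochondrial UMIs was set on the sum of these genes, so their tests depended on how nuclei were chosen. Their values are therefore given as a description. The calls rested on that limit. When it was dropped, which raised the number of pericytes from 1673 to 1696, no mitochondrial gene passed, with mt-Co2 at -1.35 (edgeR adjusted p = 0.18) and mt-Co3 at -1.18 (edgeR adjusted p = 0.127). The decreases of mt-Co2 did not differ detectably from those in endothelial cells (difference of the log2 fold-changes -0.51 ± 0.18, SE, edgeR adjusted p = 0.635) or fibroblasts (-0.53 ± 0.17, SE, edgeR adjusted p = 0.345).

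Oligodendrocyte markers fell too. Among them were Mbp, which encodes myelin basic protein, the myelin genes Mog, Mobp and Mag, and the transcription factor gene St18. The level of Mog was 180, 140 and 195 CPM in LPA and 313, 300 and 292 CPM in vehicle pericytes, with no overlap (log2 fold-change -0.81 ± 0.12, SE, edgeR adjusted p = 0.00661). For Mobp the levels were 538, 453 and 575 CPM against 1007, 880 and 815 CPM (-0.79 ± 0.12, SE, edgeR adjusted p = 0.00839). The 8 markers of the list summed to 36.5, 32.5 and 43.5 per 10000 UMIs in LPA pericytes and to 70.1, 59.6 and 56.3 in vehicle pericytes, with Mbp the most abundant (38.0%) and none at 0. Both calls were lost without LPA 1 (Mog -0.83, edgeR adjusted p = 0.0564, and Mobp -0.81, edgeR adjusted p = 0.0565), and that of Mobp also without LPA 2 (-0.69, edgeR adjusted p = 0.0502). Of the 6 fits with 1 library left out, Mbp and Mag each passed in 2 and St18 in 1. The list was lower in LPA outside the vascular gates too, at 71.0 ± 3.07 and 86.6 ± 4.14 per 10000 UMIs of all other nuclei (SD, n = 3 each, exact permutation test, p = 0.1). In the endothelial gate it was at 46.3 ± 8.75 and 53.6 ± 6.53, with overlap between the groups (SD, n = 3 each, exact permutation test, p = 0.4). Pericytes whose leading second class was oligodendrocytes were 7.28% ± 1.75 of the pericytes of LPA libraries and 13% ± 1.18 of those of vehicle libraries (SD, n = 3 each, exact permutation test, p = 0.1), and the share of nuclei with few UMIs of other classes was 60.8% ± 2.52 and 54.4% ± 2.86. In the latter nuclei, where the limit itself caps these UMIs, the list summed to 12.5 ± 1.21 and 17.5 ± 2.99, its 7 tested members were all below 0 with a median log2 fold-change of -0.52, 6 of them at an unadjusted p under 0.05 (3.15% of all genes tested there were lower at that level), and none was a DEG. The level of Mbp there was 367, 406 and 354 CPM against 448, 703 and 509 CPM, without overlap (-0.58 ± 0.15, SE), and that of Mobp 227, 220 and 226 CPM against 249, 320 and 325 CPM, also without overlap (-0.43 ± 0.14, SE). Mog, the member that missed that level, was at 96.3, 104 and 65.8 CPM against 73.8, 137 and 94.6 CPM (-0.25 ± 0.25, SE), and the groups overlapped.

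Among the 22 other genes that fell were Mal and Opalin, which encode myelin proteins, Ugt8a, the enzyme that makes the myelin lipid galactosylceramide, Trf, which encodes transferrin, and Gjc3, a gap junction gene of glia. Cdh19, a cadherin gene, was at 82.5, 50.3 and 93.8 CPM in LPA and 142, 130 and 180 CPM in vehicle pericytes (log2 fold-change -0.97 ± 0.18, SE, edgeR adjusted p = 0.0259). Depdc1b had the largest fold-change among them, at 17.6, 16.8 and 20.9 CPM against 45.9, 50.9 and 44.1 CPM (-1.34 ± 0.20, SE, edgeR adjusted p = 0.00661). It rested on only 64 UMIs in LPA and 193 in vehicle pericytes, and its level over all other nuclei was 41.4 CPM. With few UMIs of other classes it was too low to be tested. There it was at 15.5, 19.2 and 12.5 CPM on 16 UMIs against 36.9, 24.4 and 5.56 CPM on 20 UMIs, with overlap. The call of Depdc1b was lost without LPA 1 (-1.30, edgeR adjusted p = 0.0564), and that of Cdh19 without LPA 1 (-1.03, edgeR adjusted p = 0.0771), LPA 2 (-0.77, edgeR adjusted p = 0.096) or vehicle 3 (-0.83, edgeR adjusted p = 0.0626). Aox3, an aldehyde oxidase gene on the fibroblast list, fell by 1.20 ± 0.24 (SE, edgeR adjusted p = 0.0409) on the log2 scale, and passed in 0 of the 6 fits with a library left out (-1.37 to -1.05). Fibroblast markers summed to 4.25 ± 0.953 and 4.97 ± 0.616 per 10000 UMIs in LPA and vehicle pericytes (SD, n = 3 each), with Pdgfra the most abundant (17.0%). In nuclei with few UMIs of other classes 18 of the 22 genes could be tested, none passed, and the log2 fold-changes of these 18 ranged from -1.48 to -0.04 with a median of -0.54, compared to -0.68 for the same genes over all pericytes. The levels of Mal there were 18.6, 13.7 and 12.5 CPM against 32.3, 43.9 and 47.3 CPM (-1.48 ± 0.40, SE, edgeR adjusted p = 0.419), and those of Cdh19 31.1, 27.4 and 34.5 CPM against 41.5, 87.8 and 52.8 CPM (-1.05 ± 0.33, SE, edgeR adjusted p = 0.533). For both, and for Ypel2 (-0.74 ± 0.21, SE, edgeR adjusted p = 0.455), the groups did not overlap and the value was at least as low as over all pericytes. When Scrublet calls were left out, 21 of the 22 were tested and ranged from -1.24 to -0.38, and 10 of them were at least as low as over all pericytes.

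Of the 6 genes that rose, Sfxn5 had the lowest adjusted p. This gene, which encodes a mitochondrial carrier of the sideroflexin family and lies on chromosome 6 (85213049 to 85333422), was at 307, 236 and 273 CPM in LPA and at 187, 166 and 139 CPM in vehicle pericytes (log2 fold-change 0.73 ± 0.13, SE, edgeR adjusted p = 0.0189). All LPA libraries were above all vehicle libraries. Its level was higher in other nuclei (261 CPM) than in pericytes, and with few UMIs of other classes it dropped to 65.3, 76.9 and 75.2 CPM against 50.8, 63.4 and 33.4 CPM (0.55 ± 0.28, SE, edgeR adjusted p = 0.79). Rfx4, a transcription factor gene of astrocytes and neural progenitors, was at 115, 89.8 and 80.6 CPM against 58.0, 58.2 and 52.4 CPM among all pericytes (0.76 ± 0.16, SE, edgeR adjusted p = 0.0447). In the nuclei with few UMIs of other classes it was too low to be tested, at 12.4, 32.9 and 25.1 CPM on 24 UMIs against 13.8, 2.44 and 5.56 CPM on 6 UMIs, with overlap, and without Scrublet calls its log2 fold-change was 1.10 ± 0.29 (SE, edgeR adjusted p = 0.173).

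Mtcl1 and 1700018A04Rik rose over all pericytes and were at higher levels still in the nuclei with few UMIs of other classes. Mtcl1, which encodes a microtubule crosslinking factor and lies on chromosome 17 (66336982 to 66449750), was at 148, 175 and 198 CPM in LPA and 123, 106 and 111 CPM in vehicle pericytes (0.62 ± 0.13, SE, edgeR adjusted p = 0.0446). In nuclei with few UMIs of other classes its levels were 283, 242 and 354 CPM against 221, 124 and 172 CPM (0.81 ± 0.19, SE), without overlap, though it did not pass there (edgeR adjusted p = 0.244). The long noncoding RNA 1700018A04Rik (chromosome 13, 31565492 to 31625792) was at 46.5, 55.3 and 58.9 CPM against 27.4, 27.1 and 26.2 CPM (0.99 ± 0.18, SE, edgeR adjusted p = 0.0248). With few UMIs of other classes it was at 118, 102 and 166 CPM against 73.8, 65.9 and 50.1 CPM (1.04 ± 0.25, SE, edgeR adjusted p = 0.244). Both were above their mean level over all other nuclei, which was 84.3 CPM for Mtcl1 and 2.19 CPM for 1700018A04Rik, and 1700018A04Rik was highest in endothelial cells at 97.3 CPM. Fam124a (1.52 ± 0.31, SE, edgeR adjusted p = 0.0409) and Ccdc15 (1.12 ± 0.24, SE, edgeR adjusted p = 0.0449) were the remaining 2, both under 40 CPM in every library. With 1 library left out these calls were often lost. Sfxn5 passed in 3 of the 6 fits and not without LPA 1 (0.64, edgeR adjusted p = 0.101), vehicle 2 (0.74, edgeR adjusted p = 0.0882) or vehicle 3 (0.63, edgeR adjusted p = 0.0596). Rfx4 passed only without LPA 3 and 1700018A04Rik only without vehicle 1. Mtcl1 passed in 0 of the 6, with log2 fold-changes of 0.51 to 0.72, and so did Fam124a and Ccdc15.

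**Figure D4:**
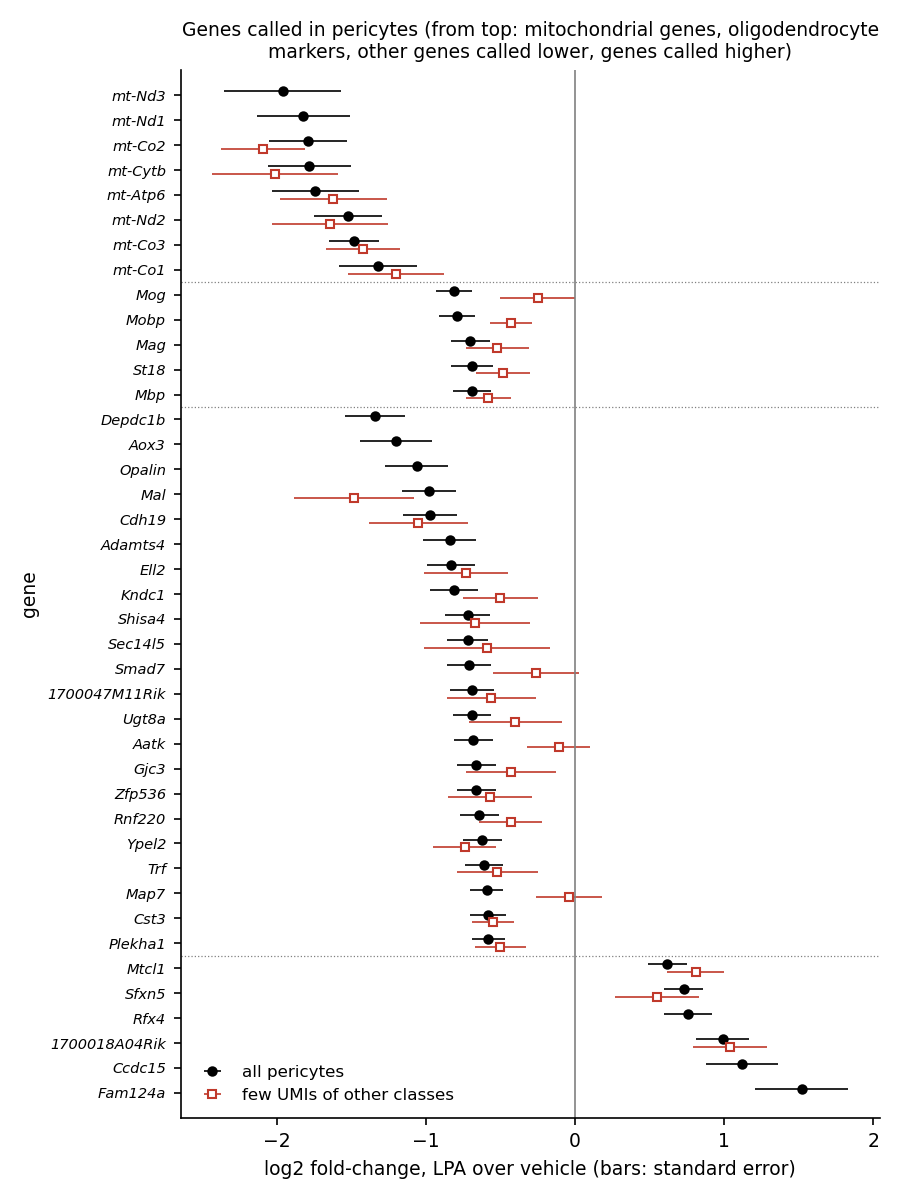
Log2 fold-change, LPA over vehicle, of 41 DEGs of pericytes (black points, all pericytes) and of those that could be tested in the 960 nuclei with few UMIs of other classes (red squares), with standard errors as bars. The values of mt-Co2 and mt-Co3 are -2.09 and -1.42 there, whereas Mog, Aatk and Map7 lie within about 1 standard error of 0.

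The gene lists were then read by role, each as its counts of genes with an unadjusted p under 0.05 beside the 4.19% higher and 4.73% lower over all genes tested, and its median log2 fold-change beside the median of 0 over all genes. Of the 23 identity genes tested, 2 were higher at that level, Ednra and Art3, none was lower, and the median was 0.07. The receptor gene of the endothelium-pericyte pathway could not be tested, since Pdgfrb is a gate gene. Its levels in nuclei with few UMIs of other classes were 2010, 1806 and 1899 CPM in LPA and 1882, 1891 and 1916 CPM in vehicle pericytes, overlapping closely. In the same nuclei none of the 23 identity genes tested was a DEG, 0 were higher and 1 was lower at an unadjusted p under 0.05. The lower one was Higd1b, a hypoxia-inducible domain gene of mural cells (-0.54 ± 0.25, SE), and Cox4i2 and P2ry14 had log2 fold-changes of -0.34 ± 0.25 and -0.25 ± 0.15 (SE). Dlc1 was at 9452, 8868 and 9403 CPM against 9218, 8750 and 9800 CPM, a log2 fold-change of -0.00 ± 0.07 (SE). Rgs5 had a log2 fold-change of 0.00 ± 0.12, Ebf1, a transcription factor gene, one of 0.07 ± 0.07, and Notch3, a Notch receptor of mural cells, one of 0.12 ± 0.10 (SE each). The levels of Vtn, which chose the nuclei, were 1395, 1397 and 1288 CPM in LPA and 2339, 1651 and 1657 CPM in vehicle pericytes there, without overlap, and were at 599, 766 and 547 CPM against 762, 818 and 747 CPM over all pericytes, with overlap.

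Signals between endothelium and pericytes came next. Of 26 ligand, receptor and target genes, 23 were tested, 0 were DEGs, 1 was lower at an unadjusted p under 0.05 (Pdgfc, a platelet-derived growth factor, log2 fold-change -0.43 ± 0.18, SE) and the median was 0.13. The angiopoietin gene Angpt1 had a log2 fold-change of 0.09 ± 0.15, its receptor gene Tek one of 0.47 ± 0.28, the Notch ligand gene Jag1 one of 0.25 ± 0.20 and the N-cadherin gene Cdh2 one of 0.26 ± 0.13 (SE each). Among 25 tested genes of the TGF-beta pathway, 3 were higher and 2 lower at that level, with a median of 0.14. The inhibitory Smad gene Smad7 was the DEG, at 65.8, 83.9 and 101 CPM in LPA and 154, 128 and 131 CPM in vehicle pericytes (-0.71 ± 0.15, SE, edgeR adjusted p = 0.0447). With 1 library left out it passed only without LPA 3 (-0.88, edgeR adjusted p = 0.0201). Its level was higher in the endothelial gate (247 CPM) and in other nuclei (175 CPM), and with few UMIs of other classes its groups overlapped (-0.26 ± 0.29, SE, edgeR adjusted p = 0.912). Without Scrublet calls its log2 fold-change was -0.82 ± 0.27 (SE, edgeR adjusted p = 0.319). The ligand gene Tgfb2 had a log2 fold-change of 0.55 ± 0.17 (SE, edgeR adjusted p = 0.258) and the coreceptor gene Eng one of 0.43 ± 0.15 (SE, edgeR adjusted p = 0.33).

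The contractile and tone genes, among them ion channels, cyclic nucleotide enzymes and myosins, had 0 DEGs among 24 tested. At an unadjusted p under 0.05 there were 5 higher genes and 0 lower ones, with a median of 0.14. With few UMIs of other classes, 3 of 23 tested were higher and 1 was lower at that level, with a median of 0.06. Pde5a, the phosphodiesterase that breaks down cyclic GMP, was at 294, 395 and 295 CPM in LPA and 198, 257 and 269 CPM in vehicle pericytes, without overlap (0.44 ± 0.14, SE, edgeR adjusted p = 0.253). With few UMIs of other classes it was at 708, 771 and 739 CPM against 595, 600 and 609 CPM (0.30 ± 0.11, SE, edgeR adjusted p = 0.663). The cation channel gene Trpc6 (0.43 ± 0.14, SE) and the nonmuscle myosin gene Myh9 (0.35 ± 0.13, SE) had similar values, neither of which passed (edgeR adjusted p = 0.282 and 0.377). The channel gene Cacna1c and the cyclic GMP-dependent kinase gene Prkg1 had log2 fold-changes of 0.25 ± 0.13 and 0.19 ± 0.13 (SE). With few UMIs of other classes, Trpc6 and Myh9 were at 0.41 ± 0.15 and 0.30 ± 0.12. Cacna1c and Prkg1 were at 0.10 ± 0.10 and 0.08 ± 0.08 there (SE each).

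Among the genes closest to passing, the focal adhesion gene Vcl was at 385, 367 and 446 CPM in LPA and 228, 288 and 299 CPM in vehicle pericytes, without overlap (0.56 ± 0.12, SE, edgeR adjusted p = 0.0563). With few UMIs of other classes it was at 578, 587 and 868 CPM against 549, 507 and 517 CPM, again without overlap (0.37 ± 0.14, SE, edgeR adjusted p = 0.684).

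Of 10 receptor and enzyme genes of LPA signaling 9 had a UMI in pericytes, 5 were tested and 0 were DEGs. The receptor gene Lpar1 was at 84.3, 75 and 100 CPM in LPA and 87.0, 102 and 101 CPM in vehicle pericytes (-0.16 ± 0.14, SE), below its mean of 244 CPM in fibroblasts, and Lpar6 was at 9.67 to 18.7 CPM (0.14 ± 0.31, SE). Enpp2, which encodes autotaxin, the enzyme that makes LPA, had means of 313 and 408 CPM in LPA and vehicle pericytes, with a log2 fold-change of -0.38 ± 0.12 (SE, edgeR adjusted p = 0.258) over all pericytes and of 0.30 ± 0.22 (SE, edgeR adjusted p = 0.834) in those with few UMIs of other classes. It was highest in other nuclei, at 608 CPM. Plpp3, a lipid phosphatase gene that degrades LPA, had means of 341 and 324 CPM and a log2 fold-change of 0.07 ± 0.12 (SE) over all pericytes. With few UMIs of other classes its levels were 96.3, 110 and 110 CPM against 129, 183 and 159 CPM, without overlap (-0.61 ± 0.19, SE, edgeR adjusted p = 0.533).

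Matrix genes showed no common direction. Of 19 basement membrane genes tested, 5 had an unadjusted p under 0.05, 2 of them higher and 3 lower, and the median was 0.05. The collagen IV genes Col4a1 and Col4a2 had log2 fold-changes of 0.22 ± 0.11 and 0.22 ± 0.12, the laminin gene Lamc1 one of 0.27 ± 0.12, and Col4a5 and Sparc ones of -0.50 ± 0.19 and -0.30 ± 0.12 (SE each). Of 16 fibrillar matrix and fibrosis genes tested, 0 reached that level in either direction (median 0.16), and Col1a1, Col1a2 and Col3a1 had values of -0.49 ± 0.35, -0.21 ± 0.16 and 0.24 ± 0.16 (SE). Of 31 inflammatory genes only 14 had counts enough to be tested. The higher ones at that level included the interleukin receptor gene Il1r1 (0.53 ± 0.20) and the transcription factor gene Stat3 (0.33 ± 0.14), and the adhesion gene Vcam1 was lower (-0.52 ± 0.23, SE each) at that level, with a median of 0.08. Osmr, the receptor for oncostatin M and not on the list, was at 104, 116 and 110 CPM against 67.7, 77.4 and 76.3 CPM, without overlap (0.58 ± 0.13, SE, edgeR adjusted p = 0.0694). The chemokine genes Ccl2, Ccl7, Cxcl1 and Cxcl10 were too low to be tested.

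The glucocorticoid response list had the lowest median among pathway lists with more than 5 genes tested, at -0.13 over 17 genes, of which 3 were lower and 0 higher at an unadjusted p under 0.05. They were Fkbp5 (-0.51 ± 0.19), Tsc22d3 (-0.45 ± 0.20) and Zbtb16 (-0.46 ± 0.21, SE each), all of which have higher levels in fibroblasts and were too low to be tested with few UMIs of other classes. Of 13 hypoxia genes tested, Epas1, which encodes HIF-2 alpha, was higher at that level (0.32 ± 0.11) and Ndrg1 and Ddit4 were lower (-0.73 ± 0.28 and -0.67 ± 0.31, SE each), with a median of -0.01. Among 19 genes of transport and brain calcification the cystine transporter gene Slc7a11 (-0.32 ± 0.13) and the betaine transporter gene Slc6a12 (-0.85 ± 0.39) were lower (SE each). Atp2a3, the calcium pump gene that marked pericytes, had a log2 fold-change of -0.29 ± 0.15, and of -0.46 ± 0.16 (SE, edgeR adjusted p = 0.566) with few UMIs of other classes. Of 15 cell division genes 5 could be tested, and the cyclin gene Ccnd2 was higher at that level (0.42 ± 0.19, SE). None of these genes was a DEG.

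**Figure D5:**
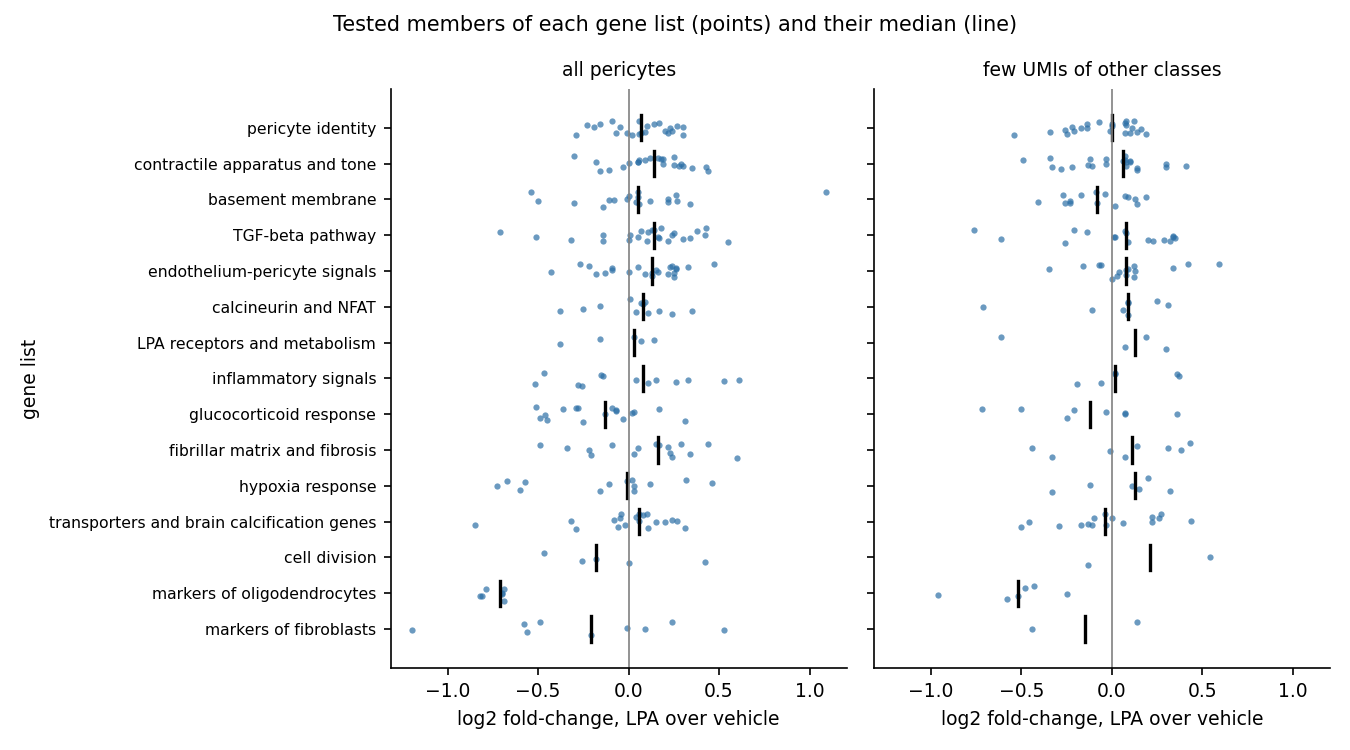
Log2 fold-change, LPA over vehicle, of tested genes of 15 lists (points) with the median of each list (black line), in all pericytes (left) and in those with few UMIs of other classes (right). The oligodendrocyte markers lie apart at a median of -0.71 on the left and -0.52 on the right.

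Another 4 genes, Adam12, Rcan2, Ltbp1 and Csmd1, were chosen because earlier results of these data named them, and none was a DEG. The metalloprotease gene Adam12 was at 96.6, 150 and 126 CPM in LPA and 194, 161 and 174 CPM in vehicle pericytes, without overlap (-0.51 ± 0.14, SE, edgeR adjusted p = 0.172), and at 833 CPM in fibroblasts. Its log2 fold-change was -0.61 ± 0.26 with few UMIs of other classes and -1.10 ± 0.24 without Scrublet calls (SE each, edgeR adjusted p = 0.73 and 0.117). Rcan2, an inhibitor of calcineurin, had a log2 fold-change of -0.25 ± 0.16 over all pericytes and of -0.71 ± 0.35 with few UMIs of other classes (SE each, edgeR adjusted p = 0.706 and 0.78). Of the 12 calcineurin and NFAT genes tested, 0 reached an unadjusted p under 0.05. Ltbp1, which encodes a protein that binds latent TGF-beta, was at 34.1 to 43.0 CPM in all libraries (0.07 ± 0.18, SE) and at 546 CPM in the smooth muscle gate. It was too low to be tested with few UMIs of other classes, at 15.5, 16.5 and 12.5 CPM on 15 UMIs in LPA and 27.7, 26.8 and 27.8 CPM on 27 UMIs in vehicle pericytes, without overlap, and without Scrublet calls its log2 fold-change was -0.97 ± 0.34 (SE, edgeR adjusted p = 0.353). Csmd1 (0.24 ± 0.12, SE, edgeR adjusted p = 0.549) was at 2307 CPM in other nuclei and at 1562 and 1319 CPM in LPA and vehicle pericytes. The log2 fold-change of Csmd1 was 0.44 ± 0.17 with few UMIs of other classes and 0.01 ± 0.12 without Scrublet calls (SE each, edgeR adjusted p = 0.684 and 0.987).

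Whether pericytes responded otherwise than their neighbors was tested as an interaction, with edgeR on sums per library of 2 gates and the library as a block. Against endothelial cells, 5 of 12398 genes passed an adjusted p under 0.05 (0.0403%), among them Rnf220, a ubiquitin ligase gene, as the only one of the 42 DEGs. Its level was 471, 391 and 508 CPM in LPA and 844, 621 and 671 CPM in vehicle pericytes, and 940, 552 and 832 CPM against 799, 700 and 606 CPM in endothelial cells (difference of log2 fold-changes -0.78 ± 0.14, SE, edgeR adjusted p = 0.0461). Against fibroblasts, 19 of 13699 genes passed (0.139%), including 8 of the DEGs, of which Mbp, Mag and St18 are on the oligodendrocyte list and Kndc1, Zfp536, Aatk, Ell2 and Depdc1b are not. Mbp had a log2 fold-change of -0.69 in pericytes and of -0.06 ± 0.09 in fibroblasts (difference -0.63 ± 0.12, SE, edgeR adjusted p = 0.0317). With the limits on UMIs of other classes set on both gates, 0 of 8442 genes passed against endothelial cells and 2 of 9971 against fibroblasts (0.0201%), Pde7b and Thsd7a, neither of them a DEG of pericytes. Rnf220 passed in 2 of the 6 fits with 1 library left out, those without LPA 2 and without vehicle 2. Counts for endothelial cells ranged from 1 to 6 when 1 library was left out, falling to 1 without LPA 1, to 2 when either LPA 3 or vehicle 3 was dropped, and to 3 in the absence of vehicle 1. For fibroblasts they were 0 without vehicle 1 and without vehicle 3, 2 without LPA 1, 3 without vehicle 2 and 12 without LPA 2, and Mbp passed only without LPA 3. The smooth muscle gate was too small for this test, with fewer than 10 nuclei in some libraries.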

How the data were processed

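Nuclei of 6 libraries were counted by the authors with Cell Ranger 4.0.0 against a pre-mRNA reference of mm10, per the labels and the study's methods, and the filtered matrices were deposited as raw UMI counts of 32285 genes. No column of another series was present (0). Here nuclei were filtered and gated as described, and UMIs were summed per library. The members and gene lists were chosen with earlier results of these data known. Sums were tested with edgeR 4.0.16 (filterByExpr, TMM, quasi-likelihood F-test, Benjamini-Hochberg adjustment), and DESeq2 1.42.0 was an alternative. The interaction fit had the library as a block. Shares and medians were compared with two-sided exact permutation tests over the 20 assignments of libraries, and intervals are Clopper-Pearson. Doublets stayed in the main result, and Scrublet calls (scanpy 1.11.5, expected rate 0.08) were left out as an alternative. Pericytes of a library held 1027901 to 1544661 UMIs. The tests were tried on simulated counts with known changes.

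Named genes were the 11 genes of the gate, up to 12 DEGs of lowest adjusted p per direction with the next 6 genes by p where there were fewer, up to 4 genes of lowest p per list, Ltbp1, Rcan2, Adam12 and Csmd1, the 10 most abundant identity genes and the 15 genes furthest above other gates. Other DEGs and list members were named after their values were seen. The alternatives changed the gate, the mitochondrial and UMI limits, doublets, the number of nuclei, the denominator, depth, the low-count filter, the tool, the block and sex terms, the test and the libraries. The division by UMIs of other classes was chosen after seeing the data. Gene coordinates are of GENCODE M21 (GRCm38). R 4.3.3, limma 3.58.1, Python 3.11.15, numpy 2.4.6, scipy 1.17.1 and pandas 2.3.3 were used. A few genes and 1 gene list are not reported here.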

Additional observations from a re-analysis of the deposited data

Results flagged for a closer look

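The response to LPA differed between pericytes and another gate for 24 gene and gate pairs, by the interaction test (edgeR adjusted p under 0.05). Values are the log2 fold-change in pericytes minus that in the other gate. Against endothelial cells these were Rnf220 (-0.78), the vasopressin gene Avp (3.08), Cped1 (1.68), the hyaluronan gene Cemip (1.88) and the amino acid transporter gene Slc6a20a (1.78). Avp varied within the groups, at 5.27, 43.4 and 100 CPM in LPA and 4.03, 5.29 and 41.9 CPM in vehicle pericytes, and at 3.15, 2.47 and 36.9 CPM against 6.52, 32.9 and 81.2 CPM in endothelial cells. For Cped1, the pericyte libraries overlapped at 202 to 328 CPM, whereas the endothelial libraries were at 9.44 to 12.3 CPM in LPA and 28.2 to 38.5 CPM in vehicle. With few UMIs of other classes in both gates, the differences were -0.83 ± 0.25 for Rnf220, 0.34 ± 0.47 for Cped1 and 1.23 ± 0.40 for Slc6a20a (SE each), and none passed (edgeR adjusted p = 0.521, 0.976 and 0.565).

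Against fibroblasts, the difference was below 0 for 16 of 19 genes. Among the DEGs of pericytes these were Depdc1b (-1.33), Mag (-0.62), Aatk (-0.59), Zfp536 (-0.65), Ell2 (-0.92), Kndc1 (-0.78), Mbp (-0.63) and St18 (-0.67). The other genes below 0 were Nfasc (-0.61), Tspan2 (-0.74), Frmd4b (-0.60), Ninj2 (-0.98), Tns3 (-0.63), 9630013A20Rik (-0.68), Ranbp3l (-0.86) and Cldn14 (-0.81). Adamts9 (0.89), Gm32647 (1.31) and the phosphodiesterase gene Pde7b (0.63) were above 0. Pde7b was at 420, 417 and 443 CPM in LPA and 338, 397 and 384 CPM in vehicle pericytes, and at 473, 454 and 427 CPM against 579, 600 and 640 CPM in fibroblasts. With few UMIs of other classes in both gates, the Pde7b difference was 0.93 ± 0.15 (SE, edgeR adjusted p = 0.000907). Among the DEGs of pericytes, Ell2 (-0.88 ± 0.35) and Zfp536 (-0.70 ± 0.27) kept values of this size there, but did not pass (edgeR adjusted p = 0.684 and 0.651). The others were at -0.05 (Mag), 0.24 (Aatk), -0.15 (Kndc1), 0.07 (Mbp), -0.04 (St18) and 0.76 ± 0.93 (Depdc1b), with SE of 0.16 to 0.33 for the first 5. Outside the DEGs, Adamts9 was at 0.91 ± 0.25, Ranbp3l at -1.36 ± 0.52, Gm32647 at 0.69 ± 0.62, Tns3 at -0.46 ± 0.24 and Ninj2 at 0.87 ± 0.64 (SE each), whereas Nfasc, Tspan2, Frmd4b, 9630013A20Rik and Cldn14 lay between -0.04 and 0.08, and none of these passed.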

How the results depend on the processing

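The share difference of -0.362 points turned to 4.97 among the 4 vascular gates and to 0.0797 when thinned to 1500 UMIs. DEG counts (6 higher, 36 lower) were 13 and 64 with a stricter gate and 32 and 26 with a looser one. They were 2 and 10 when no UMI of Flt1, Bnc2, Slc6a13, Acta2 or Myh11 was allowed. They were 3 and 18 without the mitochondrial filter, 7 and 12 with an upper limit on UMIs, and 4 and 34 with equal numbers of nuclei. Counts were 0 and 3 without Scrublet calls, 0 and 1 with few UMIs of other classes, and 39 and 122 without the low-count filter. The last included the sex-linked genes Xist, Tsix, Ddx3y, Eif2s3y and Uty. A sex term gave 5 and 15, DESeq2 gave 8 and 35, and a Wilcoxon test on single nuclei gave 43 and 17. The genes of the Wilcoxon test included the same sex-linked genes. Of the 42 DEGs, 31 were kept with equal numbers of nuclei, 28 by DESeq2, 15 with a sex term and 12 by the Wilcoxon test. The Wilcoxon test took single nuclei as replicates, so its p-values did not measure the spread between libraries. With 1 library left out, DEG counts ranged from 0 to 6 higher and from 2 to 30 lower. A replicate block gave 12 and 45 and kept 41 of the 42 DEGs. Same-numbered libraries deviated together with r of 0.127, 0.116 and -0.114, so the numbers were not taken as pairs. In nuclei with few UMIs of other classes (0 and 1), the counts were 1 and 2 with the replicate block, 0 and 2 with a sex term, 0 and 2 by DESeq2 and 7 and 11 without the low-count filter. The genes called there without the low-count filter included Xist, Tsix and Eif2s3y. With 1 library left out, the counts in these nuclei were 0 to 3 and 1 to 6. The 3 higher genes, called without vehicle 2, were Xist, Tsix and Htr2c. Of the interaction genes, 5 against endothelial cells (1 of them a DEG) became 0 and 0 with few UMIs of other classes and 1 to 6 (0 to 2) with 1 library left out. Against fibroblasts 19 (8) became 2 (0), and 0 to 22 (0 to 7). The upper quartile scaling gave 5 and 17. None of the 779 values of the 42 DEGs under 19 alternatives, the Wilcoxon test among them, changed sign (0), and 424 no longer passed. Among 117 other named genes, 50 of 2107 values passed under an alternative. Of the 2107, 51 values, of 28 genes, had the opposite sign. For 2 of these both values exceeded their SE, Enpp2 (0.30 with few UMIs of other classes) and Lhfpl3 (-0.57 without Scrublet calls). The causes were not tested. Counts sufficed to test 6546 genes in nuclei with few UMIs of other classes, against 11443 in all pericytes.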

Other observations

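In the 960 pericytes with few UMIs of other classes, the genes of lowest p after mt-Co2 and mt-Co3 were chosen after their values were seen, and none of those given here passed. The serotonin receptor gene Htr2c was at 62.1, 255 and 376 CPM in LPA and 41.5, 90.3 and 52.8 CPM in vehicle pericytes, with LPA 1 inside the vehicle range (log2 fold-change 1.82 ± 0.41, SE, edgeR adjusted p = 0.244). Its level was 371 CPM in other nuclei. Crim1, which encodes a membrane protein that binds bone morphogenetic proteins, was at 423, 291 and 323 CPM against 245, 205 and 211 CPM, without overlap (0.66 ± 0.16, SE, edgeR adjusted p = 0.244). Plcl1, a phospholipase C-like gene, was at 4577, 4293 and 4512 CPM against 5477, 5396 and 5576 CPM, without overlap (-0.30 ± 0.07, SE, edgeR adjusted p = 0.264), whereas over all pericytes its groups overlapped.

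Markers of red blood cells and of the ependyma were also counted. The 5 erythroid markers summed to 0.376 ± 0.147 per 10000 UMIs in LPA pericytes and 0.587 ± 0.042 in vehicle pericytes (SD, n = 3 each, exact permutation test, p = 0.1), with the globin gene Hbb-bs most abundant (46.3%). The 8 ependymal and choroid plexus markers summed to 1.11 ± 0.548 and 0.813 ± 0.181, with the transthyretin gene Ttr most abundant (60.2%). Astrocyte markers summed to 55.0 ± 11 and 48.9 ± 2.23, precursor markers to 20.4 ± 1.16 and 18.8 ± 2.76 and neuron markers to 68.7 ± 6.49 and 65.9 ± 6.51 (SD, n = 3 each).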
